A study of Mus musculus with 15 samples.

Results

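The genes described here encode lysosomal enzymes and their activators, lysosomal membrane proteins, subunits of the proton pump that acidifies the lysosome, and Tfeb, a transcription factor of lysosomal genes. They were chosen by symbol from a list of 42 genes, of which 41 had a row among the 20610 genes of the deposited table. The listed gene with no row, Gm2a, was not analysed here. The mice were wild-type males aged 28 days (P28), and from their cortex microglia, astrocytes and neurons were isolated magnetically and given 5 libraries each. All groups shared that genotype, sex, age and tissue, and no treatment was labelled. The libraries were made from polyA RNA, and expression was given as TPM, a transcript level scaled by transcript length and by library. Which animals gave which library is not labelled, so the p-values below measure only the spread between these libraries, which may be partly technical.

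The lysosome is the acidic compartment in which cells break down material taken up by endocytosis and phagocytosis or delivered by autophagy. Its soluble hydrolases work at low pH, its membrane proteins protect and organise the limiting membrane, and the vacuolar ATPase (V-ATPase) pumps protons into its lumen, with a cytosolic V1 part that hydrolyses ATP and a membrane V0 part that carries the protons. TFEB and its relatives bind E-box words, known as CLEAR elements, in promoters of lysosomal genes. Loss of single lysosomal enzymes causes storage diseases, many of which affect the brain, and microglia are the resident phagocytes of this tissue.

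Each library was first set against markers of the cell types it could hold. The summed level of 15 microglia markers was 78498 to 121887 TPM in microglia, 183 to 256 TPM in astrocytes and 82.7 to 151 TPM in neuron-labelled libraries. The summed level of 13 astrocyte markers was 309 to 699 TPM in microglia, 21631 to 24868 TPM in astrocytes and 149.7 to 338 TPM in neuron-labelled libraries. In the libraries labelled as neurons, 15 neuron markers summed to 805 to 1722 TPM. In the same libraries 13 endothelial markers summed to 19025 to 23981 TPM and 11 mural cell markers to 3028 to 5648 TPM. Endothelial markers summed to 300.3 to 651 TPM in microglia and 1446 to 2089 TPM in astrocytes, and neuron markers to 19.2 to 118 TPM and 152 to 299.6 TPM. The libraries are therefore called neuron-labelled, and the part of endothelial RNA in the differences from them was not tested. In microglia libraries 1 to 5, 12 markers of mature oligodendrocytes summed to 69938, 52216, 6802, 255 and 8205 TPM, against 469 to 3831 TPM in astrocytes and 221 to 10389 TPM in neuron-labelled libraries. Border macrophage markers, 8 in number, summed to 1273 to 1882 TPM in microglia, 44.9 to 75.4 TPM in astrocytes and 35 to 59.6 TPM in neuron-labelled libraries. Precursors of oligodendrocytes, by 9 markers, summed to at most 179 TPM in microglia, 1191 TPM in astrocytes and 441 TPM in neuron-labelled libraries. The single red blood cell marker in the table, Alas2, was at 188 to 991 TPM in neuron-labelled libraries and at most 10.3 TPM in the others. No marker on any list was at 0 in every library of a group. In bulk libraries, fewer cells of a type and less RNA per cell cannot be told apart.

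Lysosomal genes were highest in microglia, intermediate in astrocytes and lowest in neuron-labelled libraries for 18 of the 41 genes with a row, by mean level. The summed level of all 41 was 17902 ± 4047 TPM in microglia, 8298 ± 523 TPM in astrocytes and 5029 ± 1185 TPM in neuron-labelled libraries (SD, n = 5 each), or 1.79%, 0.83% and 0.503% of all transcripts. The ranges of these sums did not overlap between the 3 groups, at 13649 to 23640.2 TPM, 7872 to 9182 TPM and 3566 to 6274 TPM in the same order. In microglia the highest levels were those of Laptm5 (2844 ± 1040 TPM), Lgmn (2828 ± 762 TPM) and Cd68 (2273 ± 668 TPM). Genes of high level lead such a sum, so its separation of the groups does not describe the 41 genes one by one. The sums of the lipid genes, for example, overlapped between microglia (642 to 1229 TPM) and astrocytes (621 to 1102 TPM). The summed proton pump did not follow this order of groups.

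Differences were tested with limma on log2(TPM + 1), a scale that understates differences of genes with low levels. All p-values given below are limma's, adjusted by the Benjamini-Hochberg method over the 13351 genes that reached 1 TPM in 5 or more libraries, and every difference is on that log2 scale with its standard error. A gene was called where the adjusted p fell under 0.05 and the log2 difference was 1 or more in size, a fold of 2 or more. Of the 41 genes, 40 were tested; Atp6v0d2 was too low. In microglia against neuron-labelled libraries, 21 of 40 were called higher and 1 lower, while 9.74% of all genes tested were called higher and 29.5% lower. In microglia against astrocytes, 11 were called higher and 5 lower, against 10.2% and 32.3% of all genes. In astrocytes against neuron-labelled libraries, 13 were called higher and none lower, against 12.7% and 12.9% of all genes. The median log2 difference of the 40 was 1.21, 0.16 and 0.58 in these comparisons, and that of all genes tested was -0.48, -0.57 and 0.03. The comparisons share libraries, so their calls are not independent.

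The level of all genes relative to the library depended on the scaling. With median-of-ratios scaling the median of all genes moved up by 0.51 in microglia against neuron-labelled libraries and by 0.54 in microglia against astrocytes. The lysosomal counts were then 26 higher and 0 lower in microglia against neuron-labelled libraries, with 15.8% and 19.9% of all genes called, and 17 higher and 1 lower in microglia against astrocytes, with 17.1% and 19.6%. In astrocytes against neuron-labelled libraries they stayed at 13 and 0, with 11.1% and 13.2% of all genes. Among all calls of microglia against neuron-labelled libraries, the share that was higher was 24.8% on deposited TPM, 44.2% with median-of-ratios scaling and 43.7% with quantile normalization, and in microglia against astrocytes 24%, 46.6% and 44.6%. Quantile normalization gave 24 higher and 0 lower, 13 higher and 4 lower, and 12 higher and 0 lower in the 3 comparisons. Among all 13351 genes tested it called 1937 higher and 2499 lower, 2028 and 2524, and 1549 and 1805 in the same order. Of the 5 genes called lower in microglia than in astrocytes, 4 kept the direction but not the call with median-of-ratios scaling, as stated at each.

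**Figure D1:**
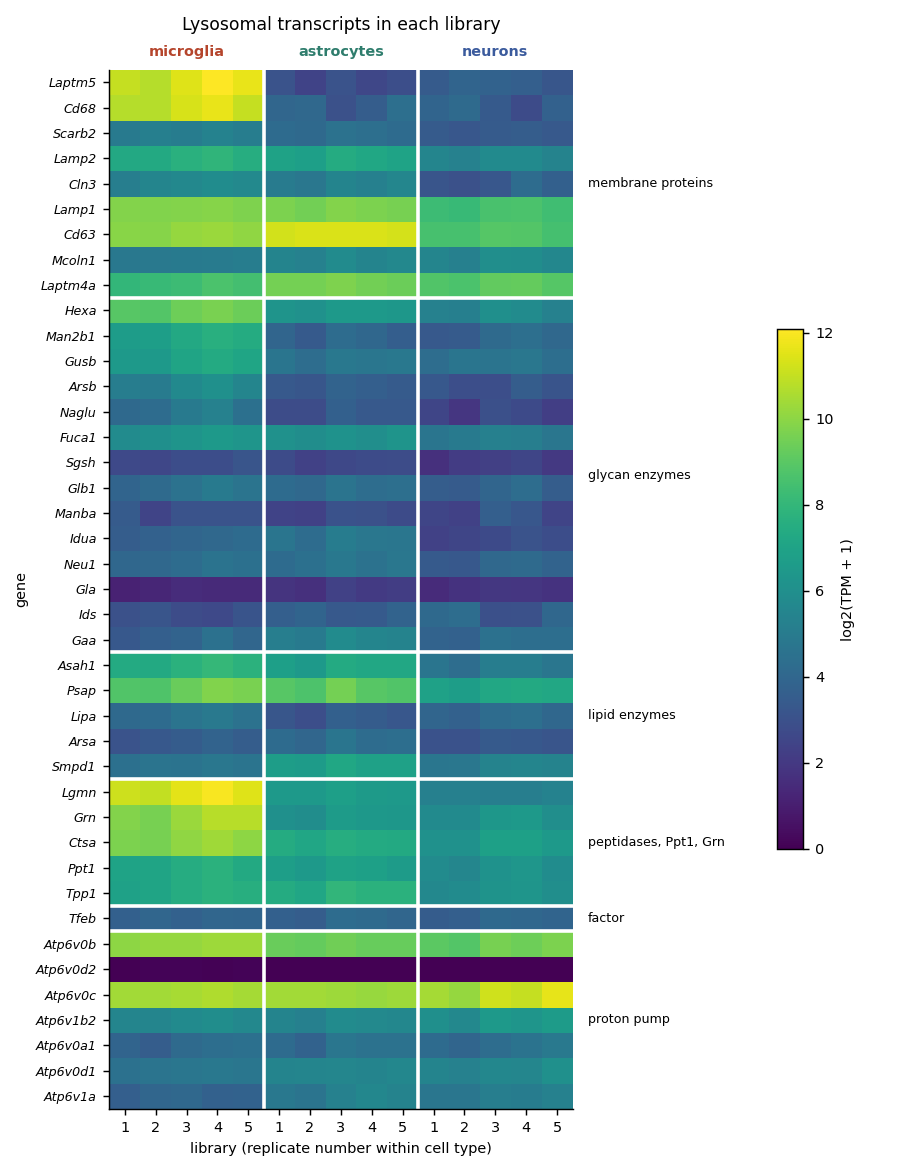
Level of the 41 lysosomal genes (rows, grouped by role) in each of the 15 libraries (columns, microglia, astrocytes and neuron-labelled), as log2(TPM + 1). Cd68, Laptm5, Lgmn and Grn form bright cells in all 5 microglia libraries, Cd63 is brightest in astrocytes, and Atp6v0c is bright in all 15.

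Among the 40 genes, 10 were called higher in microglia than in both other groups: Cd68, Laptm5, Hexa, Gusb, Naglu, Man2b1, Arsb, Ctsa, Grn and Lgmn. Another 8 were called higher in microglia and in astrocytes than in neuron-labelled libraries with no call between microglia and astrocytes: Lamp1, Lamp2, Cln3, Idua, Fuca1, Asah1, Psap and Tpp1. Gaa and Smpd1 were called higher in astrocytes than in both other groups. Cd63 was called in all 3 comparisons, highest in astrocytes and lowest in neuron-labelled libraries. No gene was called higher in neuron-labelled libraries than in both other groups, and 13 were called in no comparison. These joint patterns were not counted over all genes tested, so how common each is outside the set is not known here.

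The promoters are shown for 6 genes that span these patterns: Ctsa, high in microglia, with the CLEAR word in 1 of its 2 windows; Mcoln1, a textbook TFEB target called in no comparison; Gaa, high in astrocytes; Atp6v1a, low in microglia; and Cd68 and Laptm5, the genes furthest up in microglia, which lack the word. RefSeq windows of 300 bases on GRCm38.p6, 250 before the start and 50 after it, were found for 39 of the 42 listed genes, and 6 genes had more than 1. The sequences run 5′ to 3′ on the gene's strand, the other Ctsa window (chr2:164832622-164832921) holds none of the words, and capitals mark TCACGTG or its reverse complement CACGTGA, or both where they overlap as TCACGTGA.
Ctsa, the second of its windows, chr2:164833523-164833822, plus strand: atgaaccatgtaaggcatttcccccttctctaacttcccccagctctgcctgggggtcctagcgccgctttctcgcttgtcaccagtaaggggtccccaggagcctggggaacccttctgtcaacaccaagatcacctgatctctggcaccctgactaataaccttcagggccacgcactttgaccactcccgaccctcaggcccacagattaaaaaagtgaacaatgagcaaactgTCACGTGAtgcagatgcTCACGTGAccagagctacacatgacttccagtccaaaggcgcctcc
Mcoln1, chr8:3500269-3500568, plus strand: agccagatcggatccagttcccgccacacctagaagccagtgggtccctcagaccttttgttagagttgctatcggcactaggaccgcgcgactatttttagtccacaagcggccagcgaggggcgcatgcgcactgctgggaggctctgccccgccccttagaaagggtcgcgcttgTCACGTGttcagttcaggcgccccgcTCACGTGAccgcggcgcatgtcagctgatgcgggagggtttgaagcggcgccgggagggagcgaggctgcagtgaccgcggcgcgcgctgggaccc
Gaa, chr11:119267713-119268012, plus strand: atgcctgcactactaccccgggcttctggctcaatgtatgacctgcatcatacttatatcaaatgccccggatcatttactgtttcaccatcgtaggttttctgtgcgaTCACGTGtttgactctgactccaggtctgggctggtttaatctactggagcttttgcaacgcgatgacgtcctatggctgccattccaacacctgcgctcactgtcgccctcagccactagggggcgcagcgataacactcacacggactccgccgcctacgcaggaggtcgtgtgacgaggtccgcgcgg
Atp6v1a, chr16:44139210-44139509, minus strand: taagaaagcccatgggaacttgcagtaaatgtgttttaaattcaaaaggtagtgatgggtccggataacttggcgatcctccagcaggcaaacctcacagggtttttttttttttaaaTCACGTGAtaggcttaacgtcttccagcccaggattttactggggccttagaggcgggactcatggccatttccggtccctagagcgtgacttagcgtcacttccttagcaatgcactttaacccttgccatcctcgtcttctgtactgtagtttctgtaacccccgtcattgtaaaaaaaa
Cd68, chr11:69666121-69666420, minus strand: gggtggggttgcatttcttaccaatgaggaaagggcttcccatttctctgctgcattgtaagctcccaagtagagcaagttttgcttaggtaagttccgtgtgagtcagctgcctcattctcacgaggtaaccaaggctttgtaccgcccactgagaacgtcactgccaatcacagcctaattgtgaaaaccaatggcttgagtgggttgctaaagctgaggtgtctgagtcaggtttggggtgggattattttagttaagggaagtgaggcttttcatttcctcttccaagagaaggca
Laptm5, chr4:130913066-130913365, plus strand: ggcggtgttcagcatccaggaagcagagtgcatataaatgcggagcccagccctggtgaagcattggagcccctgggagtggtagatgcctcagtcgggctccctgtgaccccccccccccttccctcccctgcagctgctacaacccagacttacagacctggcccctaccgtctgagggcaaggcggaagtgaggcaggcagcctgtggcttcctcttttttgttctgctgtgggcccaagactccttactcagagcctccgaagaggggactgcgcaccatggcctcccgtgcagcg

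The first base of CACGTG lay 12 bases before the start in Ctsa, with a further copy just after it, 71 and 45 bases before the start in Mcoln1, 140 in Gaa and 131 in Atp6v1a. On either strand, TCACGTG was found in 14 of the 39 genes (35.9%), namely Arsa, Atp6v0b, Atp6v0d1, Atp6v1a, Cln3, Ctsa, Gaa, Gla, Glb1, Lamp1, Lgmn, Mcoln1, Naglu and Sgsh, against 4.29% of all 27025 genes with a window. The shorter CACGTG, which lies inside it, was in the same 14 genes and in 8.09% of all genes, and the longer TCACGTGA was in 6 (15.4%) and 1.12%. The word GAGGAAGT, of the kind bound by the macrophage factor PU.1, was in 2 of the 39 genes (5.13%), Gla and Gusb, and in 3.69% of all genes. These words were chosen with results of these data known, and a match is a description of letters only. Of the 14 genes with TCACGTG, 5 were called higher and 1 lower in microglia than in neuron-labelled libraries, with a median log2 difference of 0.69. Of the 24 tested genes whose windows lack it, 15 were called higher and 0 lower, with a median of 1.36. Among all genes tested, 9.74% were called higher and 29.5% lower, with a median of -0.48. In microglia against astrocytes, the 14 had 3 higher and 2 lower (median 0.12) and the 24 had 8 and 3 (0.31), beside 10.2% and 32.3% (-0.57). In astrocytes against neuron-labelled libraries, they had 5 and 7 higher and none lower (0.65 and 0.47), beside 12.7% and 12.9% (0.03).

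Membrane proteins gave the largest differences of the whole set. Of the 9, 7 were called higher in microglia than in neuron-labelled libraries, beside 9.74% of all genes. Against astrocytes, Laptm5 and Cd68 were called higher in microglia and Cd63 and Laptm4a lower, beside 10.2% and 32.3% of all genes. In astrocytes against neuron-labelled libraries, Lamp1, Lamp2, Cd63 and Cln3 were called higher and none lower, beside 12.7% and 12.9%. Laptm5 (chr4:130913125-130936141 on mm10, as all gene positions here), a lysosomal transmembrane protein of blood-derived cells, had 2068, 1681, 2892, 4328 and 3249 TPM in microglia, 7.42, 4.46, 7.65, 4.96 and 6.45 TPM in astrocytes, and 10.2, 14, 12.7, 11.6 and 8.43 TPM in neuron-labelled libraries. The lowest microglia library, at 1681 TPM, was far above the highest of the others, at 14 TPM. The log2 difference was 8.57 ± 0.22 for microglia against astrocytes (381-fold, adjusted p = 1.61e-15) and 7.78 ± 0.22 against neuron-labelled libraries (220-fold, adjusted p = 3.83e-15).

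Cd68 (chr11:69664213-69666153), a heavily glycosylated LAMP-family protein used as a macrophage marker, had 1703, 1701, 2645, 3249 and 2067 TPM in microglia, 14.7, 16, 7.0, 10.8 and 20.4 TPM in astrocytes, and 13.6, 17.0, 9.79, 5.75 and 12.6 TPM in neuron-labelled libraries. Its log2 difference was 7.29 ± 0.28 against astrocytes (157-fold, adjusted p = 1.52e-13) and 7.50 ± 0.28 against neuron-labelled libraries (182-fold, adjusted p = 1.3e-13). Astrocytes and neuron-labelled libraries overlapped, with a log2 difference of 0.21 and an adjusted p of 0.546. The low values outside microglia stood beside the 183 to 256 and 82.7 to 151 TPM of summed microglia markers in those libraries, and the part of microglial RNA in them was not tested.

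The main membrane glycoproteins Lamp1 and Lamp2 were high in both glial groups. Lamp1 (chr8:13159161-13175338) had 905, 883, 916, 952 and 855 TPM in microglia, 823, 725, 914, 841 and 788 TPM in astrocytes, and 311, 282, 384, 402 and 332 TPM in neuron-labelled libraries. Microglia and astrocytes overlapped and differed by 0.14 ± 0.11 (adjusted p = 0.256), which was 0.83 ± 0.09 with median-of-ratios scaling (adjusted p = 5.65e-07, under the fold threshold). Both lay above every neuron-labelled library, by 1.41 ± 0.11 in microglia (adjusted p = 4.27e-09) and 1.26 ± 0.11 in astrocytes (adjusted p = 3.79e-08). Lamp2 (chrX:38401357-38456454), whose splice form LAMP2A serves chaperone-mediated autophagy, was at lower levels, with 157, 163, 201, 242 and 183 TPM in microglia, 124, 111, 170.4, 147 and 129 TPM in astrocytes, and 44.8, 38.1, 54.3, 53.7 and 41.9 TPM in neuron-labelled libraries. It was again called against neuron-labelled libraries in microglia (1.99 ± 0.15, adjusted p = 1.82e-09) and astrocytes (1.53 ± 0.15, adjusted p = 1.31e-07), while its 0.47 between microglia and astrocytes (adjusted p = 0.00958) was 1.15 and called with median-of-ratios scaling.

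Cd63 and Laptm4a were highest in astrocytes. Cd63 (chr10:128900989-128912822), a tetraspanin of late endosomes and lysosomes, had 962, 944, 1149, 1215 and 1089 TPM in microglia, 2451, 2651, 2712, 2704 and 2495 TPM in astrocytes, and 377, 383, 481, 467 and 367 TPM in neuron-labelled libraries. The 3 groups did not overlap. The log2 difference was -1.28 ± 0.11 for microglia against astrocytes (adjusted p = 1.33e-08), 1.37 ± 0.11 for microglia against neuron-labelled libraries (adjusted p = 7.29e-09) and 2.65 ± 0.11 for astrocytes against neuron-labelled libraries (6.30-fold, adjusted p = 2.23e-12). With median-of-ratios scaling the first of these was -0.60 and no longer called. Laptm4a (chr12:8921664-8938742), a widely expressed paralog of Laptm5, had 257, 277, 310.2, 400.4 and 352 TPM in microglia, 757, 759, 850.4, 719.8 and 661 TPM in astrocytes, and 451, 404, 569, 594 and 476 TPM in neuron-labelled libraries. Every microglia library lay below every other library, and the difference from astrocytes was -1.24 ± 0.14 (adjusted p = 3.01e-07), or -0.55 and not called with median-of-ratios scaling. The Laptm4a and Laptm5 paralogs thus had opposite orders of level.

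Of the remaining membrane proteins, Scarb2, the receptor that carries β-glucocerebrosidase to the lysosome, averaged 34.4 ± 3.74 TPM in microglia, 19.0 ± 2.19 TPM in astrocytes and 9.79 ± 0.762 TPM in neuron-labelled libraries (SD, n = 5 each). It was called in microglia against neuron-labelled libraries (1.71 ± 0.12, adjusted p = 1.14e-09), and its 0.82 ± 0.12 against astrocytes, below the fold threshold, was 1.49 and 1.28 and called with median-of-ratios scaling and quantile normalization. Cln3, mutated in juvenile Batten disease, averaged 46.9 ± 8.41, 36.9 ± 7.64 and 10.9 ± 4.59 TPM in microglia, astrocytes and neuron-labelled libraries. It was called higher in both glial groups (2.07 ± 0.22 in microglia, adjusted p = 1.66e-07, and 1.72 ± 0.22 in astrocytes, adjusted p = 3.16e-06). Its 0.34 between microglia and astrocytes was 1.02 and called with median-of-ratios scaling. Mcoln1, the lysosomal calcium channel TRPML1, averaged 30.4 ± 2.55 TPM in microglia, 45.8 ± 6.86 TPM in astrocytes and 49.9 ± 10.2 TPM in neuron-labelled libraries and was called in no comparison. Its log2 difference of -0.57 ± 0.15 between microglia and astrocytes turned to 0.10 with median-of-ratios scaling.

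**Figure D2:**
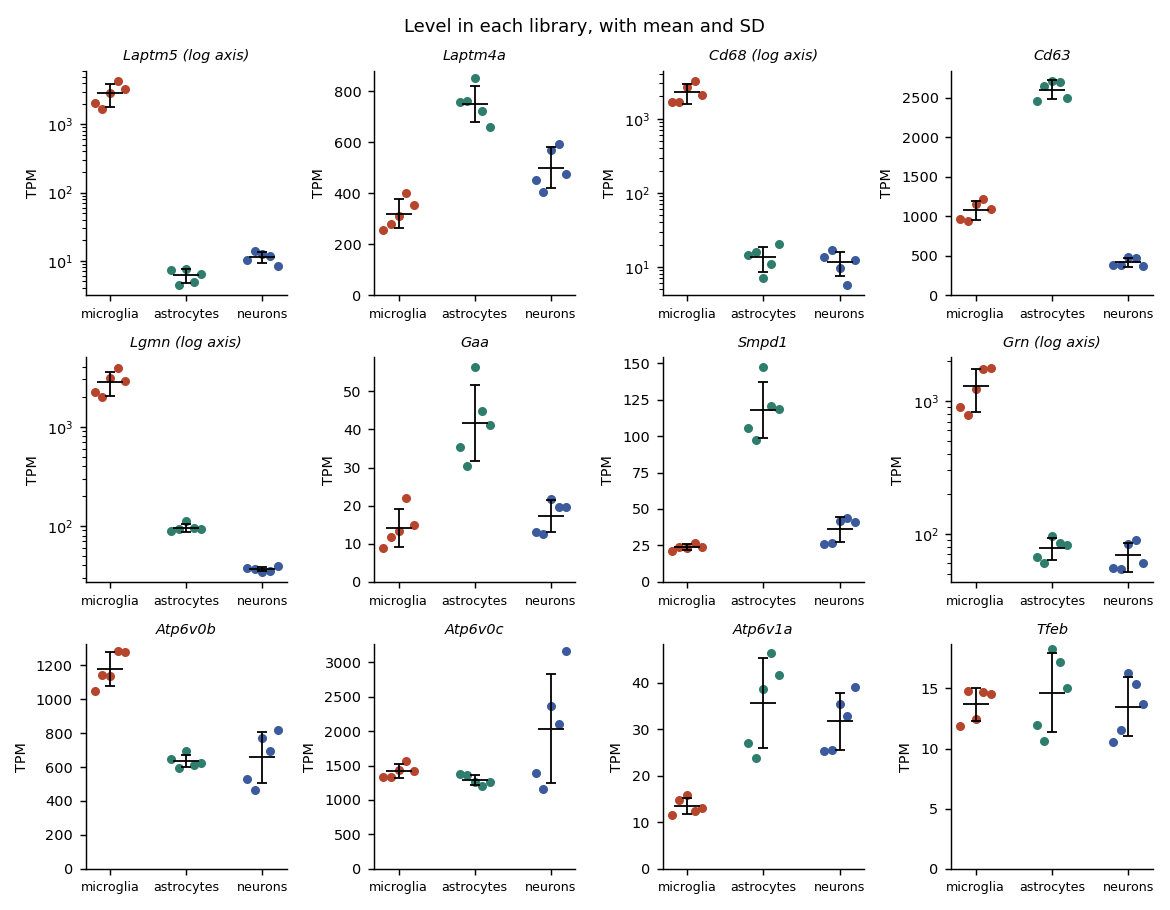
Level in TPM of 12 lysosomal genes in each library (points), with the mean and SD of each group of 5; Laptm5, Cd68, Lgmn and Grn are on a log axis. Cd63, Laptm4a, Smpd1 and Gaa are highest in astrocytes, and Tfeb overlaps in all 3 groups.

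Enzymes that degrade glycans and glycosaminoglycans were split. In microglia against neuron-labelled libraries, 7 of 14 were called higher and none lower, beside 9.74% and 29.5% of all genes. In microglia against astrocytes, 5 were called higher and 1 lower, beside 10.2% and 32.3%. In astrocytes against neuron-labelled libraries, 3 were called higher and none lower, beside 12.7% and 12.9%. Hexa (chr9:59539540-59565109), the α subunit of β-hexosaminidase A that is lost in Tay-Sachs disease, had 485, 464, 675, 811 and 653 TPM in microglia, 74.7, 69.1, 92.7, 87.8 and 82.2 TPM in astrocytes, and 39.2, 35.6, 62.7, 55.3 and 38.1 TPM in neuron-labelled libraries. No groups overlapped, and the log2 difference of microglia was 2.89 ± 0.18 from astrocytes (7.39-fold, adjusted p = 1.01e-10) and 3.72 ± 0.18 from neuron-labelled libraries (13.1-fold, adjusted p = 4.38e-12). Man2b1 (chr8:85083270-85098282), lysosomal α-mannosidase, had 103, 107, 156, 193 and 171 TPM in microglia, 14.2, 9.75, 18.3, 15.2 and 11.2 TPM in astrocytes, and 9.44, 10.2, 17.4, 20.3 and 16.1 TPM in neuron-labelled libraries. Microglia lay above all other libraries, by 3.31 ± 0.23 over astrocytes (9.89-fold, adjusted p = 5.25e-10) and 3.24 ± 0.23 over neuron-labelled libraries (9.45-fold, adjusted p = 9.17e-10). The other 2 groups overlapped.

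Gaa (chr11:119267887-119285454), the acid α-glucosidase that breaks down glycogen and is lost in Pompe disease, went the other way. It had 8.89, 11.7, 13.4, 22 and 14.9 TPM in microglia, 35.4, 30.4, 56.5, 44.7 and 41 TPM in astrocytes, and 13.2, 12.5, 21.7, 19.7 and 19.8 TPM in neuron-labelled libraries. Each astrocyte library was above each of the others, and the log2 difference was -1.52 ± 0.22 for microglia against astrocytes (adjusted p = 8.14e-06) and 1.22 ± 0.22 for astrocytes against neuron-labelled libraries (adjusted p = 0.000166). The difference between microglia and astrocytes was -0.86 and not called with median-of-ratios scaling and -1.02 and called with quantile normalization.

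Gusb (β-glucuronidase), Naglu (the heparan sulfate enzyme N-acetyl-α-glucosaminidase) and Arsb (arylsulfatase B) were called higher in microglia than in both other groups. Their means were 124 ± 31.4, 24.6 ± 9.20 and 45.4 ± 14.2 TPM in microglia, 24.9 ± 3.51, 8.5 ± 2.56 and 10.5 ± 1.92 TPM in astrocytes, and 22.8 ± 3.50, 4.76 ± 1.58 and 8.16 ± 1.81 TPM in neuron-labelled libraries (SD, n = 5 each). Idua, the α-iduronidase lost in Hurler disease, had its highest mean in astrocytes, at 14.2 ± 2.66 TPM in microglia, 25.8 ± 5.02 TPM in astrocytes and 5.59 ± 1.35 TPM in neuron-labelled libraries. It was called higher than in neuron-labelled libraries in microglia (1.21 ± 0.18, adjusted p = 1.09e-05) and in astrocytes (2.02 ± 0.18, adjusted p = 4.18e-08). Its -0.81 ± 0.18 between microglia and astrocytes (adjusted p = 0.000623) was under the fold threshold. That difference was -0.16 with median-of-ratios scaling and -0.31 with quantile normalization, and not called. Fuca1, the α-fucosidase, averaged 72.8 ± 13.8 TPM in microglia, 66.7 ± 6.47 TPM in astrocytes and 30.7 ± 5.64 TPM in neuron-labelled libraries. It was called higher in microglia (1.22 ± 0.15, adjusted p = 1.16e-06) and in astrocytes (1.10 ± 0.15, adjusted p = 7.06e-06, and 0.96 and not called with quantile normalization).

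The other 6 enzymes of glycans were called in no comparison: Gla (α-galactosidase A), Glb1 (β-galactosidase), Ids (iduronate sulfatase), Manba (β-mannosidase), Neu1 (sialidase) and Sgsh (sulfamidase). Their group means were 1.60 to 22.9 TPM. Glb1 and Sgsh were called higher in microglia than in neuron-labelled libraries under both other scalings, and Neu1 with median-of-ratios scaling. Ids split the neuron-labelled libraries, with 16.8, 18.7, 6.7, 7.03 and 15.3 TPM, against a mean of 6.89 ± 1.13 TPM in microglia and 11.5 ± 2.08 TPM in astrocytes. Its difference of microglia from neuron-labelled libraries was -0.72 ± 0.25 (adjusted p = 0.016), and -1.05 and called when libraries 3 and 4 of each group were left out. Exons of several lysosomal genes overlap others on the opposite strand, by 32.3% of exonic bases for Arsb, 21.6% for Sgsh, 18.8% for Arsa and 12.8% for Hexa. The strand of the counting is not given in the sources used here, so their reads could not be told from those of the partner gene.

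Of 6 listed enzymes and activators of lipid breakdown, 5 were tested. Of those, 4 were called higher in astrocytes than in neuron-labelled libraries, beside 12.7% of all genes. In microglia against neuron-labelled libraries, Asah1 and Psap were called higher and none lower, beside 9.74% and 29.5% of all genes. In microglia against astrocytes, Lipa was called higher and Smpd1 lower, beside 10.2% and 32.3%. Smpd1 (chr7:105554360-105558389), acid sphingomyelinase, which is lost in Niemann-Pick disease, had 20.9, 23.9, 22.9, 26.8 and 24.2 TPM in microglia, 105, 97.6, 148, 120.5 and 119 TPM in astrocytes, and 25.8, 26.8, 41.7, 44.2 and 41.3 TPM in neuron-labelled libraries. The lowest astrocyte library, at 97.6 TPM, was above the highest of the others, at 44.2 TPM. The log2 difference was -2.25 ± 0.16 for microglia against astrocytes (4.77-fold lower, adjusted p = 8.48e-10) and 1.71 ± 0.16 for astrocytes against neuron-labelled libraries (3.27-fold, adjusted p = 9.55e-08). Of the 5 genes called lower in microglia than in astrocytes, Smpd1 alone was still called with median-of-ratios scaling, at -1.58.

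Asah1 (chr8:41340197-41374773), acid ceramidase, which acts on the ceramide that sphingomyelinase releases, had 167, 159.7, 208, 261 and 214 TPM in microglia, 110.3, 91.4, 166, 150.3 and 148 TPM in astrocytes, and 25.3, 19.1, 34.2, 33.6 and 25.9 TPM in neuron-labelled libraries. It was called higher in microglia (2.83 ± 0.19, 7.13-fold, adjusted p = 4.58e-10) and astrocytes (2.23 ± 0.19, 4.68-fold, adjusted p = 2.54e-08) than in neuron-labelled libraries. Its 0.61 between microglia and astrocytes (adjusted p = 0.00882) was 1.29 and called with median-of-ratios scaling. The mean levels of Asah1 and Smpd1 were 202 ± 40.6 and 23.8 ± 2.15 TPM in microglia. They were 133 ± 31.1 and 118 ± 19.1 TPM in astrocytes, and 27.6 ± 6.33 and 36.0 ± 8.89 TPM in neuron-labelled libraries. The libraries of the 2 genes overlapped in level in astrocytes and in neuron-labelled libraries but not in microglia. Psap (chr10:60277627-60302597), the precursor of the saposins that present sphingolipids to their hydrolases, had 438, 432, 646, 899 and 792 TPM in microglia, 489.9, 411, 751, 488 and 446 TPM in astrocytes, and 121, 104, 152, 159 and 151 TPM in neuron-labelled libraries. The glial groups overlapped (0.28, adjusted p = 0.242, and 0.97, adjusted p = 0.000145, with median-of-ratios scaling), and both were called above neuron-labelled libraries (2.17 ± 0.21, adjusted p = 6e-08, in microglia, and 1.89 ± 0.21, adjusted p = 7.23e-07, in astrocytes).

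Arsa, arylsulfatase A, which is lost in metachromatic leukodystrophy, averaged 10.2 ± 2.20 TPM in microglia, 19.1 ± 3.71 TPM in astrocytes and 8.30 ± 1.18 TPM in neuron-labelled libraries. It was called in astrocytes against neuron-labelled libraries (1.10 ± 0.17, adjusted p = 2.54e-05). Lipa, lysosomal acid lipase, averaged 22 ± 5.04 TPM in microglia, 9.22 ± 2.10 TPM in astrocytes and 16.1 ± 3.05 TPM in neuron-labelled libraries. It was called in microglia against astrocytes (1.17 ± 0.19, adjusted p = 2.19e-05), and its 0.42 against neuron-labelled libraries was 1.01 and called with median-of-ratios scaling. It was the sole lipid gene whose mean was lowest in astrocytes.

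All 5 genes of the group of peptidases, a thioesterase and progranulin were called higher in microglia than in neuron-labelled libraries, and 3 were called higher than in astrocytes. Among all genes the shares called higher in microglia were 9.74% and 10.2%. Lgmn (chr12:102394084-102439813), the asparaginyl endopeptidase legumain, had 2268, 1989.6, 3069.6, 3944 and 2866 TPM in microglia, 88.9, 92.6, 112, 95.6 and 92.8 TPM in astrocytes, and 37.4, 37, 34.6, 35 and 39.4 TPM in neuron-labelled libraries. No groups overlapped, and it was called in all 3 comparisons. The log2 difference was 4.82 ± 0.15 (28.3-fold, adjusted p = 1.13e-14) for microglia against astrocytes, 6.19 ± 0.15 (73.1-fold, adjusted p = 5.62e-16) for microglia against neuron-labelled libraries and 1.37 ± 0.15 (2.58-fold, adjusted p = 5.28e-07) for astrocytes against neuron-labelled libraries. Grn (chr11:102430315-102437048), which encodes the secreted and lysosomal protein progranulin, had 909, 782, 1239, 1751 and 1782 TPM in microglia, 66.4, 60, 96.8, 85.5 and 81.8 TPM in astrocytes, and 54.8, 54.3, 83.8, 89.8 and 60.7 TPM in neuron-labelled libraries. Microglia lay above both other groups, which overlapped each other, by 3.97 ± 0.23 over astrocytes (15.7-fold, adjusted p = 3.26e-11) and 4.17 ± 0.23 over neuron-labelled libraries (18-fold, adjusted p = 2.32e-11).

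Ctsa, the protective protein that stabilises β-galactosidase and sialidase, averaged 1007 ± 220.0 TPM in microglia, 164 ± 14.4 TPM in astrocytes and 91.8 ± 23.0 TPM in neuron-labelled libraries. It was called in microglia against both, at 2.59 ± 0.17 (adjusted p = 2.8e-10) and 3.45 ± 0.17 (adjusted p = 7.42e-12), while its partners Glb1 and Neu1 were not called on deposited TPM. In microglia against neuron-labelled libraries, both partners were called with median-of-ratios scaling, Glb1 at 1.27 and Neu1 at 1.11. With quantile normalization Glb1 was called there too, at 1.08. Tpp1 (chr7:105744811-105752235), the tripeptidyl peptidase lost in late infantile Batten disease, had 118, 131, 175, 208 and 188 TPM in microglia, 172, 142, 245, 209 and 209 TPM in astrocytes, and 48.6, 56.6, 72, 77.8 and 61.2 TPM in neuron-labelled libraries. The glial groups overlapped, and both were called above neuron-labelled libraries, by 1.35 ± 0.18 (adjusted p = 3.11e-06) in microglia and 1.61 ± 0.18 (adjusted p = 7.55e-07) in astrocytes. Between the glial groups its difference was -0.26, which was 0.43 with median-of-ratios scaling. Ppt1, the palmitoyl-protein thioesterase, averaged 162 ± 34.8 TPM in microglia, 108 ± 12.9 TPM in astrocytes and 62.1 ± 13 TPM in neuron-labelled libraries. It was called in microglia against neuron-labelled libraries (1.37 ± 0.16, adjusted p = 7.55e-07) and, with median-of-ratios scaling alone, against astrocytes (1.24).

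Tfeb (chr17:47737030-47792419) had 11.9, 14.8, 12.5, 14.7 and 14.5 TPM in microglia, 12, 10.6, 18.3, 17.2 and 15 TPM in astrocytes, and 10.5, 11.6, 16.3, 15.4 and 13.7 TPM in neuron-labelled libraries. All 3 groups overlapped. The differences were 0.03 (adjusted p = 0.879) for microglia against neuron-labelled libraries, -0.07 (adjusted p = 0.716) for microglia against astrocytes and 0.10 (adjusted p = 0.633) for astrocytes against neuron-labelled libraries. With median-of-ratios scaling, microglia were higher by 0.58 than astrocytes and 0.61 than neuron-labelled libraries, below the fold threshold. Among its relatives on the list of sorting and regulation genes, Tfe3 averaged 31.2 ± 7.22 TPM in microglia, 6.45 ± 1.26 TPM in astrocytes and 6.14 ± 0.762 TPM in neuron-labelled libraries, and Mitf 5.45 ± 1.28, 1.2 ± 0.486 and 0.888 ± 0.203 TPM in the same order. Both were called higher in microglia against both groups, Tfe3 by 2.09 ± 0.18 (adjusted p = 7.47e-09) and 2.15 ± 0.18 (adjusted p = 6.95e-09), and Mitf by 1.55 ± 0.17 (adjusted p = 3.23e-07) and 1.76 ± 0.17 (adjusted p = 7.85e-08).

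**Figure D3:**
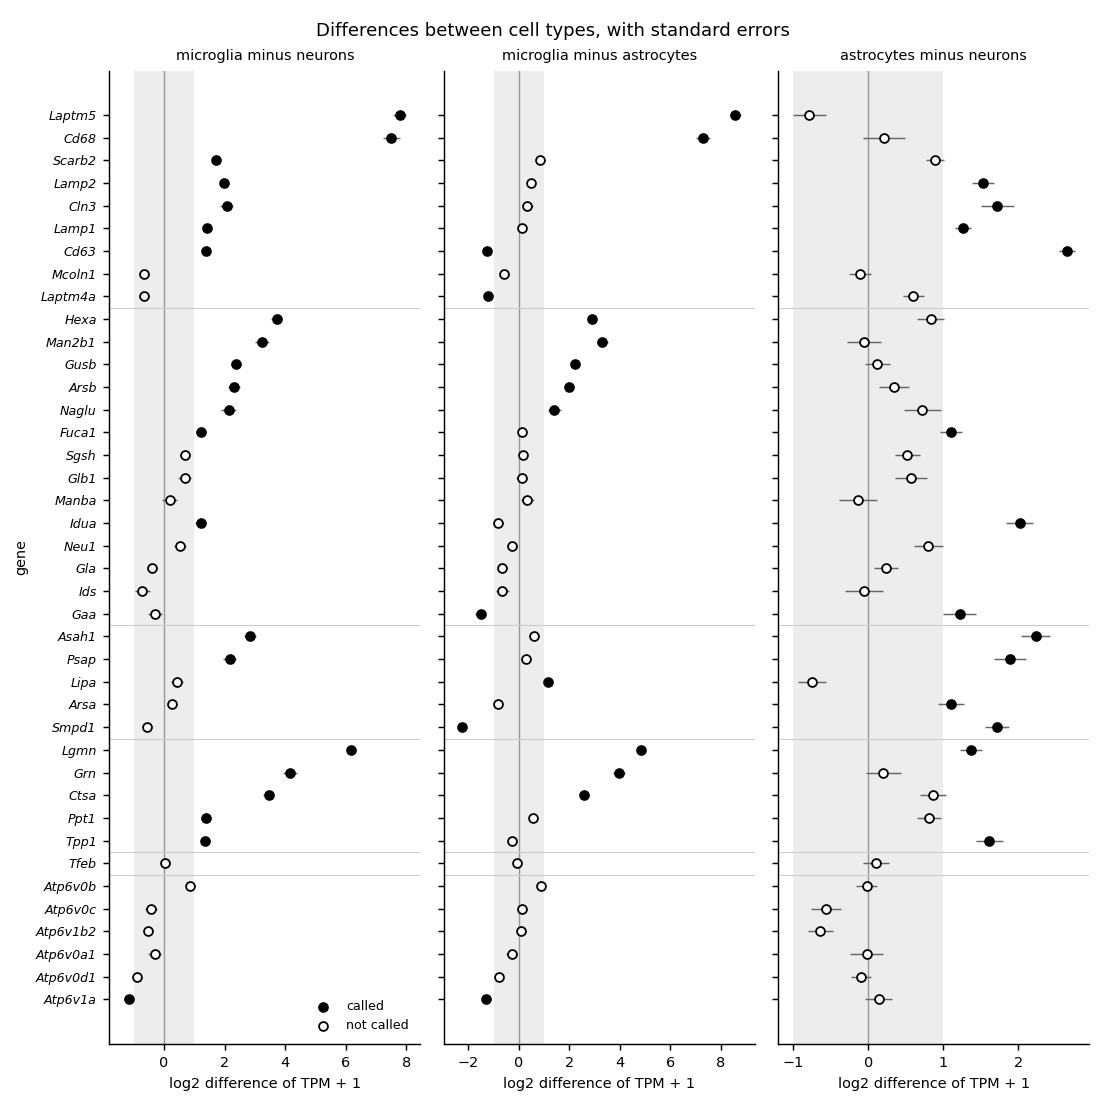
Log2 difference of each tested lysosomal gene in microglia against neuron-labelled libraries, microglia against astrocytes and astrocytes against neuron-labelled libraries, with its standard error; filled points were called and the grey band holds differences under 1 in size. Most hydrolases and membrane proteins lie right of 0 in microglia against neuron-labelled libraries, while 5 of the 6 proton pump genes lie left of it (2 of 6 with median-of-ratios scaling).

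Of the 6 tested genes of the proton pump, none was called higher in microglia and 1, Atp6v1a, was called lower, against both other groups. These shares are near or below those of all genes (9.74% higher and 29.5% lower against neuron-labelled libraries, 10.2% and 32.3% against astrocytes). Under both other scalings the counts were 1 higher, Atp6v0b, and 0 lower in both comparisons. The summed level of the pump was 2705 ± 195 TPM in microglia, 2075 ± 66.8 TPM in astrocytes and 2869.9 ± 985 TPM in neuron-labelled libraries, where the libraries ranged between 1756 and 4212 TPM. The sums of microglia libraries, 2482 to 2974 TPM, lay above those of astrocytes, 1981 to 2151 TPM. The sum was made largely of Atp6v0c and Atp6v0b, subunits of the rotating ring in the membrane. Atp6v0c (chr17:24163866-24169702) had 1339, 1334, 1438, 1572 and 1420.3 TPM in microglia, 1374, 1369, 1259, 1205 and 1256 TPM in astrocytes, and 1398, 1162, 2360.4, 2107 and 3162 TPM in neuron-labelled libraries. Microglia and astrocytes overlapped, and neuron-labelled libraries 3 to 5 were above all other libraries while 1 and 2 were not. It was not called in any comparison, at 0.14 (adjusted p = 0.551) for microglia against astrocytes, -0.43 (adjusted p = 0.0646) for microglia against neuron-labelled libraries and -0.57 (adjusted p = 0.0234) for astrocytes against neuron-labelled libraries. Without libraries 1 and 2 of each group, the last became -1.01 and was called, and with median-of-ratios scaling the middle one turned to 0.18. In neuron-labelled libraries 1 to 5, oligodendrocyte markers summed to 8493, 10389, 221, 248 and 1651 TPM and neuron markers to 967, 805, 1205, 1042 and 1722 TPM, and the part of either in the split was not tested. GENCODE vM21 lists processed pseudogenes of Atp6v0c and Cd63, with which reads could be shared, so their levels are less certain.

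Atp6v0b (chr4:117884326-117887333) had 1051, 1141, 1139.8, 1283 and 1281 TPM in microglia, 646, 596, 694, 614 and 625 TPM in astrocytes, and 531, 467, 771, 692 and 821 TPM in neuron-labelled libraries. Microglia lay above every other library, but the differences of 0.89 ± 0.14 from astrocytes (adjusted p = 2.22e-05) and 0.87 ± 0.14 from neuron-labelled libraries (adjusted p = 2.95e-05) were under the fold threshold. They were called with median-of-ratios scaling, at 1.58 and 1.49, and with quantile normalization, at 1.11 and 1.27. Exons of Atp6v0b overlap an antisense gene over 11.8% of their bases.

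Atp6v1a (chr16:44085402-44139705), the catalytic subunit of the V1 part, had 11.5, 14.8, 15.8, 12.3 and 13.1 TPM in microglia, 27.1, 23.9, 38.6, 46.5 and 41.7 TPM in astrocytes, and 25.4, 25.6, 35.4, 32.9 and 39.1 TPM in neuron-labelled libraries. All microglia libraries were below all others, with a log2 difference of -1.30 ± 0.18 from astrocytes (adjusted p = 5.49e-06) and -1.16 ± 0.18 from neuron-labelled libraries (adjusted p = 2.16e-05). These were -0.64 and -0.58 with median-of-ratios scaling and -0.80 and -0.81 with quantile normalization, and no longer called. Atp6v1b2, the B subunit that pairs with it, averaged 50.2 ± 6.26 TPM in microglia, 46.9 ± 7.55 TPM in astrocytes and 75.2 ± 19.2 TPM in neuron-labelled libraries, with no call.

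The paralogs of the V0 d subunit differed in level throughout. Atp6v0d1 (chr8:105524465-105566047), the ubiquitous form, had 21.8, 24.1, 25.8, 27.7 and 26.1 TPM in microglia, 43.3, 43.6, 45.9, 42.1 and 46.7 TPM in astrocytes, and 43.3, 38.6, 47.7, 46.2 and 65.3 TPM in neuron-labelled libraries. Microglia were below every other library, but the differences of -0.80 from astrocytes (adjusted p = 2.98e-05) and -0.90 from neuron-labelled libraries (adjusted p = 8.74e-06) were under the fold threshold. They were -0.13 and -0.30 with median-of-ratios scaling. Atp6v0d2 (chr4:19876841-19922605), the form known from osteoclasts and macrophages, was listed at 0.03, 0.09, 0.07, 0.05 and 0.09 TPM in microglia and at 0 in all astrocyte and neuron-labelled libraries, and was not tested. Atp6v0a1, the a subunit also found on synaptic vesicles, averaged 16.4 ± 4.03 TPM in microglia, 20.3 ± 5.13 TPM in astrocytes and 20.6 ± 5.47 TPM in neuron-labelled libraries, with no call. The median difference of the 6 tested pump genes, -0.49 for microglia against neuron-labelled libraries, was close to the -0.48 of all genes, and with median-of-ratios scaling it turned to 0.12 against 0.02. For microglia against astrocytes the 6 differences were -1.30, -0.80, -0.28, 0.10, 0.14 and 0.89, beside a median of -0.57 for all genes. With median-of-ratios scaling they were -0.64, -0.13, 0.37, 0.78, 0.83 and 1.58, beside -0.02.

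**Figure D4:**
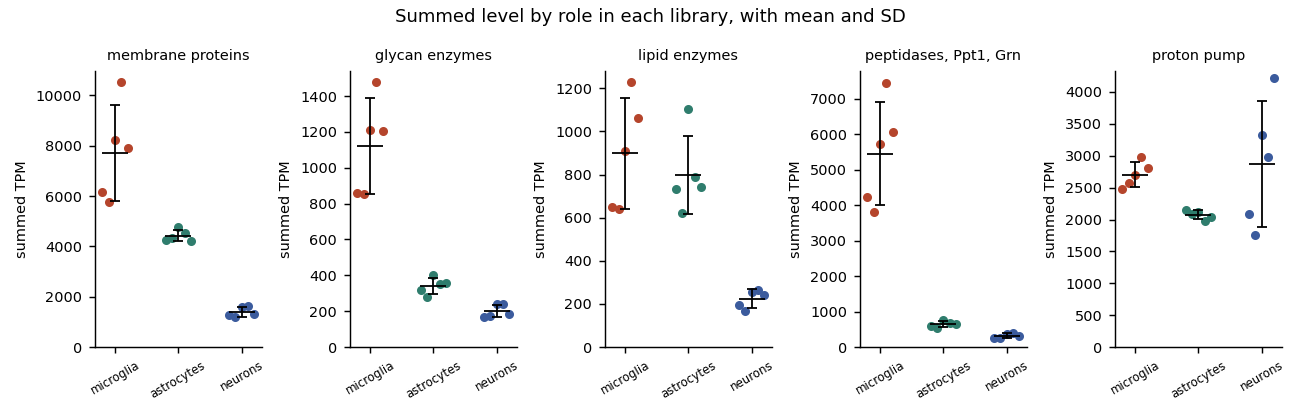
Summed TPM of the lysosomal genes of 5 roles in each library (points), with the mean and SD of each group of 5. Peptidases with progranulin sum to 5453 ± 1460.3 TPM in microglia, 642 ± 84.7 TPM in astrocytes and 322 ± 61.8 TPM in neuron-labelled libraries, while the proton pump overlaps between microglia and neuron-labelled libraries.

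Summed by role, membrane proteins gave 7710.5 ± 1900.2 TPM in microglia, 4428 ± 231 TPM in astrocytes and 1396 ± 197 TPM in neuron-labelled libraries. Enzymes of glycans gave 1121 ± 266, 341 ± 44.9 and 202 ± 34.8 TPM, and enzymes of lipids 899 ± 257, 797 ± 181 and 225 ± 41.9 TPM, in the same order (SD, n = 5 each). On deposited TPM the astrocyte sums overlapped those of microglia for lipids and lay below them for peptidases. Scaling bears on the lipid sum, whose largest genes, Psap and Asah1, differed more between microglia and astrocytes with median-of-ratios scaling, as given above.

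Libraries 1 and 2 of a group tended to lie below libraries 3 to 5, both in these genes and among all genes tested. In microglia, for 32 of the 40 tested genes (80%), libraries 3, 4 and 5 were all above libraries 1 and 2, and for 0 genes all below, against 33.5% above and 16.3% below among all genes tested. The ratio of the mean of libraries 3 to 5 to that of libraries 1 and 2 had a median of 1.37 over the 40 genes and 1.14 over all genes. In astrocytes libraries 3 to 5 were all above for 24 genes (60%) and all below for 1 (2.5%), against 47.3% and 5.54% of all genes, with median ratios of 1.25 and 1.28. In neuron-labelled libraries they were all above for 25 genes (62.5%) and all below for 2 (5%), against 46.2% and 5.4% of all genes, with median ratios of 1.38 and 1.3. The sums of all 41 genes were 3985 and 3566 TPM in neuron-labelled libraries 1 and 2 and 5798, 5521 and 6274 TPM in 3 to 5. Microglia libraries 1 and 2 held the 69938 and 52216 TPM of oligodendrocyte markers and the lowest sums of microglia markers, 83309 and 78498 TPM, against 105089, 121887 and 120120.1 TPM in libraries 3 to 5. Without microglia libraries 1 and 2 no call of a lysosomal gene changed in any comparison.

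Other genes of the pathway were counted from 4 lists, and their counts are to be read against the shares of all genes called. Those were 9.74% higher and 29.5% lower in microglia against neuron-labelled libraries, 10.2% and 32.3% in microglia against astrocytes, and 12.7% and 12.9% in astrocytes against neuron-labelled libraries. Of 23 further hydrolases and cofactors, all tested, 14 were called higher and none lower in microglia against neuron-labelled libraries, 7 higher and 1 lower in microglia against astrocytes, and 4 higher and 1 lower in astrocytes against neuron-labelled libraries. Pld4, an endolysosomal nuclease, averaged 744 ± 226 TPM in microglia, 2.31 ± 0.56 TPM in astrocytes and 1.42 ± 0.446 TPM in neuron-labelled libraries. Acp5, tartrate-resistant acid phosphatase, was the 1 hydrolase called lower in astrocytes than in neuron-labelled libraries (-1.54 ± 0.22, adjusted p = 1.34e-05). Its levels were low, at 1.93 ± 0.42 TPM in microglia, 0.668 ± 0.405 TPM in astrocytes and 3.98 ± 1.76 TPM in neuron-labelled libraries.

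Of 20 further membrane proteins and transporters, 7 were called higher and 1 lower in microglia against neuron-labelled libraries, 4 higher and 3 lower in microglia against astrocytes, and 9 higher and 1 lower in astrocytes against neuron-labelled libraries. Slc29a3, a lysosomal nucleoside transporter, averaged 62.8 ± 13.8 TPM in microglia, 10.5 ± 2.41 TPM in astrocytes and 2.44 ± 0.44 TPM in neuron-labelled libraries and was called in all 3 comparisons. Lamp5, a LAMP relative of brain neurons, went the other way. It was at 1.42 ± 1.13 TPM in microglia, 3.47 ± 1.63 TPM in astrocytes and 42.9 ± 17.5 TPM in neuron-labelled libraries (-4.23 ± 0.37 for microglia and -3.28 ± 0.37 for astrocytes against neuron-labelled libraries, adjusted p = 1.69e-08 and 8.99e-07). Laptm4b, a further relative of Laptm4a, was highest in astrocytes, at 40.3 ± 6.52 TPM in microglia, 149 ± 18.7 TPM in astrocytes and 60.2 ± 9.21 TPM in neuron-labelled libraries.

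Of 18 other V-ATPase subunits and partners, 13 were tested, with 2 called higher and 3 lower in microglia against neuron-labelled libraries, 1 higher and 3 lower in microglia against astrocytes, and none higher and 1 lower in astrocytes against neuron-labelled libraries. The isoforms of single subunits differed in where they were high. Tcirg1, the a subunit isoform known from osteoclasts, averaged 57.0 ± 17.5 TPM in microglia, 17.5 ± 7.95 TPM in astrocytes and 9.66 ± 3.16 TPM in neuron-labelled libraries. It was called higher in microglia against both (1.70 ± 0.29, adjusted p = 4.26e-05, and 2.44 ± 0.29, adjusted p = 6.65e-07). Atp6v1g2, the neuronal G subunit, averaged 26.8 ± 18.1 TPM in microglia, 68.4 ± 29.5 TPM in astrocytes and 232 ± 53.4 TPM in neuron-labelled libraries. It was called in all 3 comparisons, though its -1.55 ± 0.45 between microglia and astrocytes was -0.89 and not called with median-of-ratios scaling. The ubiquitous Atp6v1g1 averaged 367 ± 15.5 TPM in microglia, 314 ± 6.57 TPM in astrocytes and 308 ± 44.7 TPM in neuron-labelled libraries, with no call. Atp6v0e2 was at 37.9 ± 28.5 TPM in microglia, 158 ± 9.82 TPM in astrocytes and 181 ± 24.3 TPM in neuron-labelled libraries (-2.47 ± 0.44 and -2.66 ± 0.44 for microglia, adjusted p = 7.71e-05 and 3.77e-05).

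Of 21 genes of lysosomal sorting and regulation, 20 were tested, with 6 called higher and 1 lower in microglia against neuron-labelled libraries, 5 higher and 3 lower in microglia against astrocytes, and 1 higher and none lower in astrocytes against neuron-labelled libraries. Besides Tfe3 and Mitf, Nagpa, the enzyme that uncovers the mannose 6-phosphate tag of hydrolases, averaged 44.4 ± 14.6 TPM in microglia, 11.9 ± 2.11 TPM in astrocytes and 10.1 ± 2.40 TPM in neuron-labelled libraries and was called higher in microglia against both. Flcn, folliculin, a regulator of TFEB and TFE3, averaged 30.0 ± 6.61 TPM in microglia, 23.2 ± 4.77 TPM in astrocytes and 7.12 ± 1.24 TPM in neuron-labelled libraries. It was called higher in both glial groups (1.92 ± 0.17, adjusted p = 2.22e-08, and 1.57 ± 0.17, adjusted p = 6.15e-07). Rragd, a Rag GTPase of the mTORC1 pathway, was called lower in microglia, at 1.5 ± 0.653 TPM, against 5.57 ± 2.15 TPM in astrocytes and 6.35 ± 2.60 TPM in neuron-labelled libraries. It kept the call in only 1 of these comparisons with median-of-ratios scaling and in neither with quantile normalization. With median-of-ratios scaling, the counts in microglia against astrocytes became 15 higher and 0 lower for the hydrolases, 7 and 1 for the membrane proteins, 4 and 1 for the V-ATPase list and 7 and 0 for sorting and regulation, beside 17.1% and 19.6% of all genes. In microglia against neuron-labelled libraries they became 17 and 0, 9 and 1, 4 and 2, and 8 and 1, beside 15.8% and 19.9%. Among genes with a promoter window, TCACGTG was in 7 of 18 sorting and regulation genes (38.9%) and 2 of 14 further hydrolases (14.3%). It was in 3 of 16 further membrane proteins (18.8%) and 1 of 14 other V-ATPase genes (7.14%), beside 4.29% of all 27025 genes with a window. The lists are small, so a few genes set each share.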

How the data were processed

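RNA of 15 libraries was analysed from a table of TPM deposited by the authors. Per the labels, cDNA was amplified by PCR with polyA enrichment and sequenced as paired reads of 150 nt, 30 M per library on average. The genome build was mm10 and the tools listed are RSEM 1.2.28, STAR 2.7.1a, DESeq2 1.36.0 and Trim Galore 0.6.4, per the submitters' processing notes. TPM keep no read depth, so no counting interval could be given. All 15 columns were used and 0 were left out.

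Values were taken as log2(TPM + 1), a pseudocount of 1. The 13351 genes that reached 1 TPM in 5 or more libraries were fitted in limma 3.58.1 (R 4.3.3) with a mean per cell type over all 15 libraries and variances that follow mean expression, with Benjamini-Hochberg adjustment over all of them. The members, gene lists, thresholds and alternatives were chosen with earlier results of these data known, and no list is independent evidence of its direction. Values in every library are given, by rule, for the 2 genes of each role furthest up and the 1 furthest down in microglia against the other groups' mean, for genes called in opposite directions, for genes not tested, for Tfeb and for 3 paralog pairs. Named genes of the pathway lists are those called with the largest differences in each direction, apart from Mitf and Atp6v1g1, which were chosen after their values were seen. A gene that this rule names is not reported here. Alternatives were other scalings, filters, pseudocounts, variance models and sets of libraries. Gene positions, found for 20499 of the 20610 gene IDs, come from GENCODE vM21 (mm10), and promoters from RefSeq on GRCm38.p6. Figures were drawn with matplotlib 3.10.9 in Python 3.11.15, with pandas 2.3.3 and numpy 2.4.6.

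Replicate numbers are shared between cell types. After removal of group means, same-numbered libraries of microglia and neurons correlated at 0.216 to 0.382 in all 5 pairs, a hint of pairing that no label states. What these libraries share was not tested. Oligodendrocyte markers were highest in libraries 1 and 2 of both groups. For microglia with astrocytes (-0.011 to 0.249) and astrocytes with neurons (-0.0329 to 0.233) 3 of 5 pairs were above 0.1.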

Additional observations from a re-analysis of the deposited data

Results flagged for a closer look

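Of 120 groups of 5 libraries screened, 1 lysosomal gene had a library far from the others of its group. Psap in astrocyte library 3 was at 750.9 TPM, and the nearest other astrocyte library was at 489.91 TPM, a gap of 0.768 of the group's range against a critical value of 0.71 for 5 libraries. Chance flags about 1 in 20 such groups, so a single flag among 120 is below that rate. The calls of Psap did not change when this library was left out.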

How the results depend on the processing

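Across 27 alternative settings and 120 pairs of gene and comparison, 3210 of 3237 values kept their call or lack of one, 8 lost the call, 19 gained it and 0 called values reversed. Calls never changed in 100 of the 120 pairs. Among values called neither way, 51, from 24 pairs, had the opposite sign, all of pairs whose difference was at most 0.57 in size on deposited TPM. The counts of calls moved with the scaling. Genes called lower in microglia against neuron-labelled libraries were 0, against 1, with median-of-ratios scaling and with quantile normalization, and 2 without libraries 3 and 4 of each group, when Ids joined. In microglia against astrocytes, median-of-ratios scaling gave 17 higher, against 11, and 1 lower, against 5. Without libraries 1 and 2 of each group, 1 gene, Atp6v0c, was called lower in astrocytes than in neuron-labelled libraries, against 0.

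Leaving out each library in turn changed no call, with 21 to 21 higher and 1 to 1 lower in microglia against neuron-labelled libraries, 11 to 11 and 5 to 5 in microglia against astrocytes, and 13 to 13 and 0 to 0 in astrocytes against neuron-labelled libraries. The fit with the replicate number as a block gave the same counts, 21 and 1, 11 and 5, and 13 and 0, and changed no call. A pseudocount of 0.1, no filter, a filter of 5 TPM, array weights, no variance trend and fits of 2 cell types at a time changed no call either. Among the 40 genes, every call of a lower level in microglia other than that of Smpd1 was lost under at least 1 scaling. TPM keep no depth, so the precision of low genes such as Gla, at 1.60 ± 0.243 TPM in microglia, 3.13 ± 0.807 TPM in astrocytes and 2.45 ± 0.408 TPM in neuron-labelled libraries, and of Atp6v0d2 is unknown.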
